A study of Mus musculus with 4 samples.

Results

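The 35 genes described here encode enzymes, membrane proteins and regulators of the lysosome. They were taken by gene symbol from a fixed list, and all 35 were found among the 54532 genes of the deposited table. The study measured messenger RNA by bulk RNA sequencing in tumour-associated macrophages, which were sorted from glioblastoma xenografts in mice as living CD45+, CD11b+ and Gr1- cells. It has 2 control libraries and 2 libraries labelled as treated with MK-8931, also called verubecestat, which blocks the beta-secretase BACE1. The labels describe the control as vehicle and the treatment as lasting 3 days, but they name cultured glioma stem cells as the cells treated, and sorted macrophages as the cells sequenced. The labels give the strain only as GBM mice. They name neither the tumour line nor the number, sex or age of the animals, and they do not say whether the libraries came from separate mice, so the spread between libraries may be technical.

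The lysosome is the acidic compartment in which cells break down proteins, glycans, lipids and nucleic acids. Its soluble hydrolases are made in the endoplasmic reticulum, tagged with mannose 6-phosphate and delivered by receptors, while a glycosylated membrane and a proton pump keep the enzymes enclosed and active. Macrophages are rich in lysosomes because they digest what they engulf. The transcription factor TFEB, held in the cytoplasm when the kinase mTORC1 is active on the lysosomal surface, binds a motif with the core CACGTG in the promoters of many lysosomal genes.

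Because the 35 genes include known targets of TFEB as well as Tfeb itself, their promoters were searched for that core. The RefSeq table (build GRCm38.p6) held a promoter for 31 of them, each a window of 250 bases before and 50 bases after an annotated start. CACGTG, which reads the same on both strands, was found in 11 of these 31 genes, or 35.5%. A gene with several annotated starts was counted if any of its windows held the core. Among all 10078 tested genes with a promoter in the table outside that chromosome, 1187 (11.8%) held it. Counted by window, 11 of 36 (30.6%) held CACGTG, against 9.88% of the windows of all tested genes. In Ctsa and Lgmn the window at the most upstream start held no copy, and the match lay only at a start further downstream. The longer TCACGTG, searched on both strands and always overlapping the core, was found in 10 of the 31 (32.3%), against 6.98% of tested genes. A match describes letters in a window and is not evidence that a factor binds there. The 30 bases around the core nearest to the start are shown for the 11 genes, with the core in capitals, because they show how alike the flanking bases are.
Ctsd (chr7:142387908-142387937, minus strand): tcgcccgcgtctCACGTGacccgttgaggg
Ctsa (chr2:164833766-164833795, plus strand): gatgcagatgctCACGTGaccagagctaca
Lgmn (chr12:102439124-102439153, minus strand): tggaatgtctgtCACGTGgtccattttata
Ctsl (chr13:64370739-64370768, minus strand): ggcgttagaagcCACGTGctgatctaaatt
Glb1 (chr9:114401018-114401047, plus strand): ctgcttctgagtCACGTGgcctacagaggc
Naglu (chr11:101070009-101070038, plus strand): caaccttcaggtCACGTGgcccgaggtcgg
Sgsh (chr11:119355522-119355551, minus strand): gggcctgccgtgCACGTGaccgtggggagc
Gaa (chr11:119267811-119267840, plus strand): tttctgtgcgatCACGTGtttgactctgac
Gla (chrX:134601182-134601211, minus strand): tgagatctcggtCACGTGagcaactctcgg
Lamp1 (chr8:13159134-13159163, plus strand): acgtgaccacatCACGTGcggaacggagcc
Mcoln1 (chr8:3500462-3500491, plus strand): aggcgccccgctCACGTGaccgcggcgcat
Ctsl was the only 1 of the 11 whose promoter held the core and not TCACGTG. In Lamp1 the core occurred 4 times, beginning 61, 45, 28 and 15 bases before the start, and its 250 upstream bases are shown for that cluster. Those of Ctsc, the gene with the largest positive fold change below, are shown beside it as 1 of the 20 genes without a copy.
Lamp1 (chr8:13158911-13159160, plus strand): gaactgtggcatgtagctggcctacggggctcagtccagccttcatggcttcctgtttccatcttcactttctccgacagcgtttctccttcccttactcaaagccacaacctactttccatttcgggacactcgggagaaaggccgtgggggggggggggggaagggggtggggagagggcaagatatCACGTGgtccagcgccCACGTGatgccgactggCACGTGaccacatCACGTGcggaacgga
Ctsc (chr7:88277835-88278084, plus strand): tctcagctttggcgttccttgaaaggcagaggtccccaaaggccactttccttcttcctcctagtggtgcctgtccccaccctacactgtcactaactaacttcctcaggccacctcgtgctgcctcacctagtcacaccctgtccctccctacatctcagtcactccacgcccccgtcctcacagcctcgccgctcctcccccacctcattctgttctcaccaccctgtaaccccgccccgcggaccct
The 11 genes with the core had a median log2 fold change of −0.16 between MK-8931 and control, with 8 of 11 below 0. The 20 without it had a median of −0.10, with 16 of 20 below 0.

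Before the comparison, the level of each gene was read in FPKM, the authors' count scaled to gene length and library, which allows genes to be set beside each other. Lysosomal genes were among the most abundant messages of these cells. Ranked by mean FPKM over the 13932 genes with enough counts to test, 12 of the 35 stood within the first 100 and 28 within the first 1000. Psap, which encodes the precursor of the saposins that help enzymes degrade sphingolipids, was the highest of them at 3331 ± 147 FPKM in controls (mean ± SD, n = 2) and had rank 7. Next came the aspartic protease Ctsd at 3192 ± 519 FPKM, legumain (Lgmn), which cleaves after asparagine and matures other cathepsins, at 2092 ± 258 FPKM, and the cysteine protease Ctsb at 1985 ± 266 FPKM. Ctss, the cathepsin that processes the invariant chain of MHC class II, stood at 1494 ± 207 FPKM. The macrophage marker Cd68, a heavily glycosylated membrane protein of late endosomes, had 1369 ± 126 FPKM. At the low end were Tfeb at 11.8 ± 0.552 FPKM, the calcium channel Mcoln1 at 11.2 ± 0.087 FPKM and the heparan sulfatase Sgsh at 9.91 ± 0.211 FPKM, which had rank 4216. Each gene was well covered, with 805 to 256645 counts in a library.

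**Figure D1:**
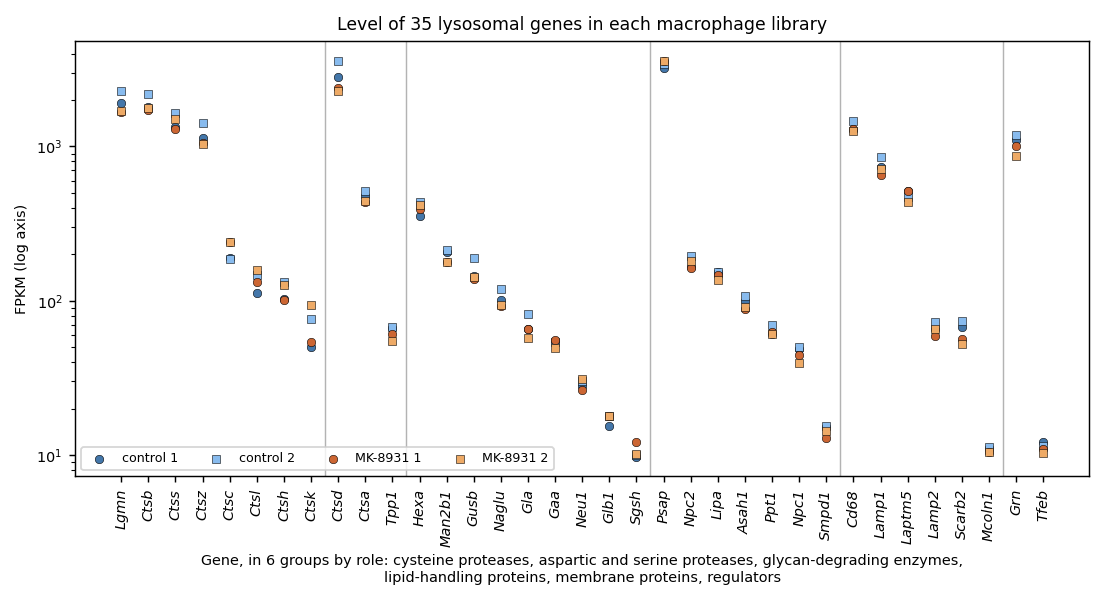
Level in FPKM (log axis) of the 35 lysosomal genes in each library, 1 point per library, with genes grouped by role and blue for control, orange for MK-8931. Levels span from control means of 9.91 FPKM for Sgsh to 3331 FPKM for Psap, and the 4 points of a gene lie close together against that range.

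Libraries held 18257930 to 20179875 counts. The sort was checked against marker genes. The macrophage markers Csf1r and Adgre1 stood at 1490 to 1619 CPM and 1034 to 1182 CPM, where CPM is the count scaled to library size with TMM factors. The 10 macrophage markers summed to 8524 and 10853 CPM in the controls, against 7927 and 8166 CPM under MK-8931. Of these 10, 1 rose and 0 fell. The one that rose was Itgam, which encodes the CD11b used in the sort, at 220 and 180 CPM in the controls, against 328 and 345 CPM under MK-8931 (log2 fold change 0.75, SE 0.14, adjusted p = 0.0485). Lymphocyte markers summed to at most 1.29 CPM in any library, with Klrb1c and Ncr1 at 0 in each. Markers of endothelial cells, pericytes and fibroblasts summed to 461 and 199 CPM in the controls, against 456 and 678 CPM under MK-8931. Neutrophil markers separated the groups, and whether this bears on the results below was not tested. Of 10 tested neutrophil genes 9 rose and 0 fell. One of the 9, G0s2, had 0 and 7 counts in the controls and was tested only through its MK-8931 libraries. The 14 listed genes summed to 86.6 and 86.4 CPM in the controls against 578 and 969 CPM with MK-8931, with Elane at 0 throughout. Ly6g, part of the Gr1 antigen, had 0 counts in both controls and in MK-8931 1, and 14 in MK-8931 2. The sort kept Gr1- cells, and how fully it removed neutrophils was not tested. Monocyte markers, of which 2 of 4 rose, summed to 125 and 65.9 CPM against 257 and 258 CPM. The part of these cells in the lysosomal values was not tested. In bulk RNA, fewer cells of a type and less RNA per cell cannot be told apart.

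The comparison asks how lysosomal gene expression in the macrophages differed with the inhibitor. No lysosomal gene passed the threshold, an adjusted p of 0.05 in edgeR's quasi-likelihood test over all genes tested: of 35 members, all tested, 0 were called higher and 0 lower. Over all 13932 genes, 0.861% were called higher and 0.136% lower. At an unadjusted p under 0.05 there were 1 higher and 3 lower members, against 6.53% higher and 4.25% lower of all genes. DESeq2 also called 0 members, where it called 1.73% of all genes higher and 0.677% lower, and limma-voom called 0, against 0.890% and 0.215%. Each gave 5 members an unadjusted p under 0.05. The authors' deposited table gave no member an adjusted p under 0.05 either, its smallest being 0.120, where 1.50% of its 22381 genes had one. Its member fold changes were nearly those of the DESeq2 fit (log2 −0.439 for Ctsd in both), so it does not count as a separate result. The folds were small. No member's log2 fold change exceeded 0.5 in size, and no 95% interval reached a 2-fold change, with interval ends from 0.593-fold to 1.80-fold.

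**Figure D2:**
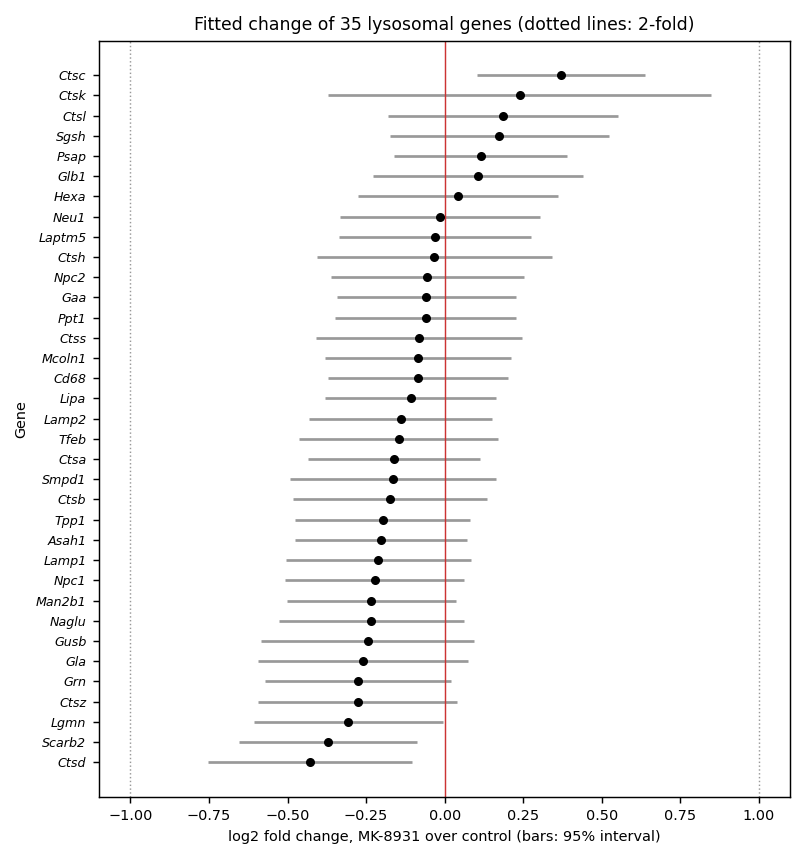
Fitted log2 fold change of MK-8931 over control for each of the 35 genes, ordered by value, with bars for the 95% interval and dotted lines at a 2-fold change. Intervals of Ctsd, Scarb2, Lgmn and Ctsc leave out 0 before any adjustment, and none reaches a dotted line.

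Within those limits most members lay below 0. A total of 28 had a negative log2 fold change and 7 a positive one, where 50.4% of all genes tested were negative and 49.6% positive, and the median was −0.14 against −0.0030 over all genes. For 19 members both MK-8931 libraries lay below both controls, a pattern found in 20.0% of all genes tested. For 4 members, Ctsc, Psap, Sgsh and Glb1, both lay above, against 21.2% of all genes. The remaining 12 overlapped. Control 2 was the highest of the 4 libraries in 24 members and exceeded control 1 in 30 of 35, where 48.7% of all genes tested did. The controls differed from each other by a median of 0.16 in log2 CPM, and the median absolute log2 fold change between groups was 0.17. In 16 members the gap between the controls was the larger. Without control 2, 22 of 35 members remained below 0 and the median was −0.08. Leaving out control 1 instead gave a median of −0.21, with 30 below 0 and Ctsd and Lgmn called lower, in a fit that called 1.64% of all genes lower. Each fit that leaves out 1 library has 1 group with no replicate, so its p-values, here and below, rest on the spread within the other group and assume that the lone library varies alike.

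**Figure D3:**
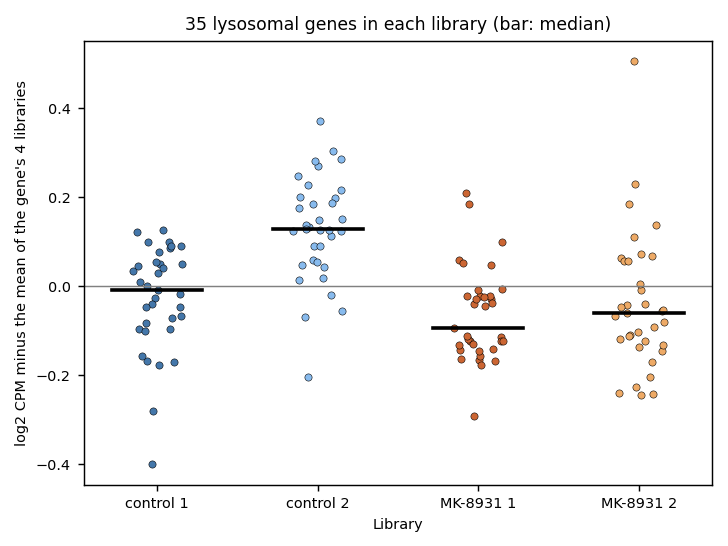
Each point is 1 of the 35 genes in 1 library, as log2 CPM minus the gene's mean over the 4 libraries, and bars are medians. The median is highest in control 2 at 0.13, near 0 in control 1 and below 0 in MK-8931 1 (−0.09) and MK-8931 2 (−0.06).

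Together the 35 genes took 5.71% and 6.24% of all counts in the controls, against 5.50% and 5.54% under MK-8931. The MK-8931 libraries were the lower ones, by less than the gap between the controls. Set against the summed macrophage markers the order turned: the members' CPM was 6.63 and 5.93 times that sum in the controls and 6.88 and 6.73 times with MK-8931. C1qa and C1qb, which encode chains of the complement protein C1q, made up 45.7% to 60.8% of that sum. Without them the ratio was 13.6 and 15.1 in the controls against 12.7 and 12.8 with MK-8931.

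Among the proteases, the 3 aspartic and serine enzymes lay below 0, and in each both MK-8931 libraries were under both controls. Ctsd, the main aspartic protease of the lysosome (ENSMUSG00000007891, GRCm38 chromosome 7, 142375911 to 142388038, minus strand), stood at 6681 and 8346 CPM in the controls, against 5708 and 5448 CPM under MK-8931. The groups did not overlap, but the controls lay further from each other than control 1 lay from either MK-8931 library. Its log2 fold change was −0.43 (SE 0.14, 95% interval −0.75 to −0.11, adjusted p = 0.281), the largest negative one of the 35. It was −0.26 without control 2 (adjusted p = 0.615) and −0.59 without control 1 (adjusted p = 0.00133). Ctsa, a serine carboxypeptidase that also protects beta-galactosidase and neuraminidase, had a log2 fold change of −0.16. Tpp1, which removes tripeptides from the ends of proteins, had −0.20.

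The 8 cysteine proteases did not move as a block: 5 had negative and 3 positive values, with a median of −0.06, and 4 of the 8 overlapped between groups. Legumain (ENSMUSG00000021190, chromosome 12, 102394084 to 102439813, minus strand) stood at 4462 and 5270 CPM in the controls, against 3895 and 3973 CPM under MK-8931. Both treated libraries lay below both controls, and the log2 fold change of −0.31 (SE 0.13, adjusted p = 0.447) was −0.43 without control 1 (adjusted p = 0.0396) and −0.18 without control 2 (adjusted p = 0.871). Ctsz, a carboxypeptidase, was at 1650 and 2036 CPM against 1532 and 1508 CPM (log2 fold change −0.28, SE 0.14, adjusted p = 0.545). Here too control 2 was the library that stood highest. Ctsb showed the same order, with 10933 and 13114 CPM in the controls, against 10435 and 10871 CPM under MK-8931 (−0.17, SE 0.14, adjusted p = 0.743), and control 1 lay within 62 CPM of MK-8931 2.

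Ctsc was the only cysteine protease of the 8 with both MK-8931 libraries above both controls. This dipeptidyl peptidase, which activates the serine proteases of neutrophil and lymphocyte granules (ENSMUSG00000030560, chromosome 7, 88278085 to 88310888, plus strand), stood at 1108 and 1081 CPM in the controls, against 1416 and 1414 CPM under MK-8931. Replicates differed far less than the groups did. The log2 fold change was 0.37 (SE 0.12, 95% interval 0.10 to 0.64), the largest positive value and the smallest p of the 35, but the adjusted p of 0.260 did not pass. It ranged only from 0.35 to 0.38 with any single library left out. The neutrophil markers given above were higher in the same libraries, at 578 and 969 CPM in sum, and their part in the Ctsc value was not tested.

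The other cysteine cathepsins varied with the library rather than with the group. Ctsk, the collagen-degrading cathepsin of osteoclasts, had 76.7 and 115 CPM in the controls, against 82.7 and 144 CPM under MK-8931. In each group the library numbered 2 was the higher, by 0.59 in log2 CPM for the controls and 0.80 for MK-8931. The fold change, 0.24 in log2 (SE 0.27, adjusted p = 0.839), was −0.23 without MK-8931 2 and −0.03 without control 1. Ctsl, a broad endopeptidase, went the same way between libraries, with 730 and 944 CPM against 863 and 1040 CPM (0.18, SE 0.16, adjusted p = 0.780). Ctss, whose gene lies beside Ctsk on chromosome 3, was at 1840 and 2222 CPM against 1781 and 2056 CPM (−0.08, SE 0.14, adjusted p = 0.913). Ctsh, an aminopeptidase, had 461 and 595 CPM against 462 and 571 CPM. Groups overlapped in all 4 of these genes.

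Of the 9 enzymes that degrade glycans, 6 lay below 0 and 3 above, with a median of −0.06. The groups were separated with MK-8931 lower in 4. Man2b1, an alpha-mannosidase, had the tightest replicates of them at 1677 and 1716 CPM against 1436 and 1449 CPM, and a log2 fold change of −0.23 (adjusted p = 0.552). The others were Naglu, which acts on heparan sulfate (−0.23), the alpha-galactosidase Gla (−0.26) and the beta-glucuronidase Gusb (−0.25), with adjusted p from 0.598 to 0.645. In Gla the separation was narrow, with control 1 at 217 CPM and MK-8931 1 at 216 CPM. Sgsh, the sulfatase that acts in the same heparan sulfate pathway as Naglu (ENSMUSG00000005043), lay on the other side, at 43.3 and 44.3 CPM in the controls, against 53.8 and 45.1 CPM under MK-8931. MK-8931 2 was close to the controls, and the log2 fold change of 0.17 (SE 0.15) had an adjusted p of 0.780. The beta-galactosidase Glb1 (0.11), the beta-hexosaminidase subunit Hexa (0.04), the acid alpha-glucosidase Gaa (−0.06) and the sialidase Neu1 (−0.02) lay nearer to 0.

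Proteins that handle lipids had a median of −0.11, and 6 of 7 lay below 0. Psap was the one above (ENSMUSG00000004207, chromosome 10, 60277627 to 60302597, plus strand). It stood at 8905 and 9401 CPM in the controls, against 9839 and 9977 CPM under MK-8931, without overlap, and its log2 fold change of 0.11 (SE 0.12) had an adjusted p of 0.826. As the most abundant of the group, Psap set its share of all counts, which was 1.15% and 1.18% in the controls, against 1.23% and 1.25% under MK-8931. The 4 members with MK-8931 below both controls were Npc1, which exports cholesterol from the lysosome (−0.22), the acid ceramidase Asah1 (−0.20), the acid sphingomyelinase Smpd1 (−0.16) and the acid lipase Lipa (−0.11). Their adjusted p lay between 0.606 and 0.835. The cholesterol carrier Npc2, which passes cholesterol to Npc1, and the thioesterase Ppt1, which removes palmitate from proteins, had −0.06 each and overlapped between groups. Ppt1 overlaps Cap1 on the other strand, a gene at a mean of 1030 CPM, and whether counting used strand is not given in the sources used here.

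All 6 membrane proteins lay below 0, with a median of −0.11. Scarb2, also called LIMP-2, the receptor that carries glucocerebrosidase to the lysosome (ENSMUSG00000029426, chromosome 5, 92441314 to 92506833, minus strand), stood at 425 and 464 CPM in the controls, against 356 and 331 CPM under MK-8931. The groups were separated by more than either replicate gap. Its log2 fold change was −0.37 (SE 0.12, 95% interval −0.65 to −0.09, adjusted p = 0.283), and lay between −0.44 and −0.31 with single libraries left out. Lamp1 and Lamp2 are the abundant glycoproteins that line the membrane. Lamp1 had 1989 and 2270 CPM against 1764 and 1913 CPM (−0.21, adjusted p = 0.652), while Lamp2 overlapped between groups (−0.14). The calcium channel Mcoln1 was nearly constant, at 84.6 and 84.8 CPM in the controls, against 79.8 and 80.0 CPM under MK-8931 (−0.08, 95% interval −0.38 to 0.21). Cd68 (−0.09) and Laptm5 (−0.03), a transmembrane protein of lysosomes in blood cells, overlapped between groups.

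For both regulators, too, each MK-8931 library lay under each control, without passing the test. Grn, which encodes progranulin, a secreted precursor whose lysosomal fragments sustain hydrolase function (ENSMUSG00000034708, chromosome 11, 102430315 to 102437048, plus strand), stood at 3837 and 4104 CPM against 3510 and 3046 CPM. The log2 fold change was −0.28 (SE 0.13, adjusted p = 0.514). Tfeb (ENSMUSG00000023990, chromosome 17, 47737030 to 47792419, plus strand) had 69.6 and 64.6 CPM in the controls, against 62.7 and 58.6 CPM under MK-8931. Its replicates lay further apart than the nearest libraries of the groups (64.6 and 62.7 CPM), and its log2 fold change was −0.15 (SE 0.14, 95% interval −0.46 to 0.17, adjusted p = 0.803). TFEB is controlled largely through its location in the cell, which messenger RNA does not report.

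The other genes of the lysosome were grouped in lists by function, and the lists were not tested against each other or against the 35. Of 36 other tested hydrolases 0 passed, with 6 lower and 2 higher at an unadjusted p under 0.05 (over all genes 4.25% and 6.53%), 24 of 36 below 0 and a median of −0.13. The smallest p values belonged to Plbd1, a phospholipase-like protein that is also abundant in neutrophils (77.4 and 38.1 CPM against 147 and 159 CPM, adjusted p = 0.0574), and to the exonuclease Pld3 (806 and 925 CPM against 667 and 616 CPM, log2 fold change −0.43, adjusted p = 0.224). Pld3 passed without control 1 (adjusted p = 0.0144) and not without control 2 (adjusted p = 0.502). The fitted log2 fold change of Plbd1 was 1.41. It passed without control 1 (adjusted p = 1.06e-12), without control 2 (adjusted p = 4.02e-04), with limma-voom (adjusted p = 0.0330) and with no filter on low counts (adjusted p = 8.30e-15). It did not pass with DESeq2 (adjusted p = 0.124), without MK-8931 1 (0.197), without MK-8931 2 (0.302) or with other scalings (0.0563 to 0.0804). Among 28 other membrane proteins 1 rose and 0 fell, with a median of −0.11. The one that rose was Slc11a1, a metal ion transporter of phagosomes known as NRAMP1 (ENSMUSG00000026177), at 215 and 209 CPM in the controls, against 330 and 339 CPM under MK-8931. The log2 fold change, 0.66 (SE 0.12, adjusted p = 0.0453), was 0.67 without MK-8931 1 and 0.63 without MK-8931 2, but did not pass in either case (adjusted p = 0.200 and 0.318). Neutrophil and monocyte markers were higher in the same libraries, and their part was not tested.

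The proton pump, the nutrient-sensing complexes and the delivery machinery gave no call with all 4 libraries in the unblocked edgeR fit. Of 20 tested subunits of the vacuolar ATPase 0 passed, and the median was −0.06. At an unadjusted p under 0.05, 2 were lower and 0 higher (over all genes 4.25% and 6.53%). Atp6ap2, an accessory subunit, had −0.33 (adjusted p = 0.383) and the peripheral subunit Atp6v1e1 0.17 (adjusted p = 0.767). The 22 genes of the MiT/TFE factors and lysosomal mTORC1 had a median of −0.01. At an unadjusted p under 0.05, 3 of them were lower and 0 higher (over all genes 4.25% and 6.53%). The 3 with an unadjusted p under 0.05 were Rraga, Rragd and Rragc, GTPases that bring mTORC1 to the lysosome, with log2 fold changes of −0.47, −0.45 and −0.30 and adjusted p from 0.269 to 0.423. Rraga passed without control 1 (−0.63, adjusted p = 0.0132) and not without control 2 (−0.30, adjusted p = 0.761). Rragd and Rragc were named after their values were seen. Tfec, a relative of Tfeb found in macrophages, had 0.35 (adjusted p = 0.550). In the 18 genes of enzyme targeting (median −0.07) 0 passed. At an unadjusted p under 0.05, 1 was lower and 1 higher (over all genes 4.25% and 6.53%). They were Gnptab, which makes the mannose 6-phosphate tag (284 and 264 CPM against 220 and 192 CPM, adjusted p = 0.248), and Igf2r, a receptor for that tag (169 and 145 CPM against 209 and 199 CPM, adjusted p = 0.308). Their log2 fold changes were −0.41 and 0.38. The HOPS complex, which tethers lysosomes for fusion, and genes of lysosome movement gave 0 calls among 11 and 0 at an unadjusted p under 0.05 (median −0.08), with Vps41 at −0.18 and Vps18 at 0.15. Autophagy genes gave 0 calls and 0 at an unadjusted p under 0.05 among 25 (median −0.09), with Gabarapl1 at −0.32 and Rb1cc1 at 0.25.

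Cystatins, which bind and block cysteine cathepsins, were the list that held the largest value. Of 7 listed genes 4 could be tested, 1 rose and 0 fell. The one that rose, Stfa2, met the minimum count of 10 only through its MK-8931 libraries. Its place among the tested genes therefore depended on its being high there. Stfa2, one of the near-identical stefin A genes whose reads may be shared, had 3 and 2 counts in the controls, against 113 and 245 under MK-8931. The ratio of summed counts was 72.1 (95% counting interval 30.6 to 223, which leaves out the spread between libraries). The edgeR fit gave 69.4-fold (95% interval 25.7 to 187) with an adjusted p of 0.00296. With limma-voom the adjusted p was 0.133. Stefin A genes are known from neutrophils, whose markers were higher in the same MK-8931 libraries, and their part in the Stfa2 value was not tested. Cst3, the abundant secreted cystatin C, stood at −0.29 in log2 fold change (adjusted p = 0.557), Cst7, which restrains Ctsc, −0.85 from 104 and 115 counts to 47 and 73 (adjusted p = 0.434), and Cstb −0.04. The last 3 were named after their values were seen.

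**Figure D4:**
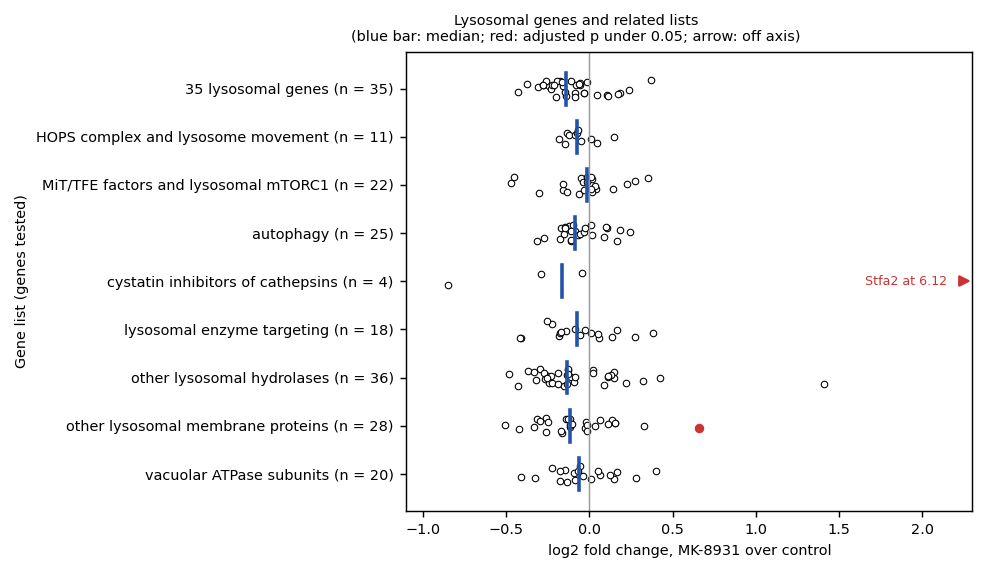
Log2 fold change of MK-8931 over control for each tested gene of the 35 and of 8 related lists, with blue bars for medians and red for an adjusted p under 0.05. Medians lie between −0.17 and −0.01, only Slc11a1 and Stfa2 are red, and Stfa2 is beyond the axis at 6.12.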

How the data were processed

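The 35 members were matched by symbol, and all were tested. The members and gene lists were chosen with earlier results of these data known. Whole-number counts per gene and FPKM were deposited by the authors, per the file headers; FPKM equals the count over gene length times a constant per library, so only counts were tested. Of the members, 34 have the GRCm38 position of GENCODE M21 (all but Npc1), and coordinates are given as GRCm38, although the submitters' processing notes name mm9 and CASAVA. Aligner, counter and strand use: not given in the sources used here. Of the 35, 15 overlap another annotated gene, 4 of them on the same strand, so reads may be shared.

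After filterByExpr (minimum count 10), 13932 genes were scaled by TMM and compared by the two-sided quasi-likelihood F test of edgeR 4.0.16 (R 4.3.3). P-values were adjusted over these genes by Benjamini-Hochberg, with 0.05 as threshold. Each standard error is the size of the log2 fold change over the square root of F. The scripts were tested on simulated data. DESeq2 1.42.0, limma-voom (limma 3.58.1), other scalings, no filter, a replicate block and leaving out each library were alternatives. Every member is described. Values per library are given for the 5 members with the highest mean FPKM, the 5 with the smallest p in each direction and Tfeb, and for others chosen after their values were seen. In each related list, genes that passed or else the smallest p in each direction are named.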

Additional observations from a re-analysis of the deposited data

How the results depend on the processing

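With other scalings, no filter, DESeq2 or limma-voom, 0 members were called. With the replicate number as a block, 1 member was called higher and 2 lower (Ctsc, Ctsd and Scarb2, adjusted p from 0.0274 to 0.0386), while calls over all genes went from 139 to 743. The labels give no shared origin to a number, so they give the block no support. Deviations of same-numbered libraries correlated at 0.20 across genes, and whether a number marks a shared origin was not tested. In the related lists the block called 3 other hydrolases (Pld3 among them), 1 other membrane protein, Rraga and Gnptab lower and Igf2r and 1 other hydrolase higher beside Slc11a1 and Stfa2, with adjusted p from 0.0150 to 0.0292 for Pld3, Rraga, Gnptab and Igf2r. Leaving out 1 library at a time, where the p rests on the spread of the other group, gave 0 members called higher and 0 to 2 lower, a median log2 fold change of −0.21 to −0.083, and a ratio of member count shares, MK-8931 over control, of 0.884 to 0.967 around 0.923. Relative to the summed macrophage markers that ratio was 1.08, and 0.887 without C1qa and C1qb, both chosen after the data were seen. Some members changed sign when single libraries were left out, and not only those near 0. Ctsk, at 0.24 with all libraries, ran from −0.23 to 0.57 in log2 fold change. The range was −0.15 to 0.090 for Neu1 (0.011 with library size alone), −0.0020 to 0.21 for Glb1 and −0.11 to 0.20 for Hexa. It was −0.16 to 0.068 for Laptm5, −0.22 to 0.060 for Ctss, −0.21 to 0.16 for Ctsh and −0.16 to 0.038 for Ppt1. For Npc2 it was −0.17 to 0.058, for Cd68 −0.18 to 0.0050 and for Gaa −0.16 to 0.016. With 2 libraries per group, replicate spread and not count depth limits these values.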
